A study of Mus musculus with 8 samples.

Results

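The small proline-rich protein (Sprr) family was examined in mouse epidermis as the 10 genes Sprr1a, Sprr1b, Sprr2b, Sprr2d, Sprr2e, Sprr2f, Sprr2g, Sprr2h, Sprr3 and Sprr4, taken by symbol from the 54232 gene identifiers of the count files. The files list 7 further genes with Sprr in their symbol (Sprr2a1, Sprr2a2, Sprr2a3, Sprr2c-ps, Sprr2i, Sprr2j-ps and Sprr2k), which were not members and appear only where reads could be shared. RNA was sequenced from the scraped epidermis of back skin of female mice, an F1 cross of C57Bl and 129, that carried a REDD1 knockout (KO) or were wild type (WT). REDD1 is the product of Ddit4 and restrains mTORC1 under stress, and the labels do not say how the KO allele was made, how old the mice were or how many mice gave each library. Mice had received the glucocorticoid fluocinolone acetonide (FA) at 2 ug and 1 h later the phorbol ester TPA at 4 ug, the same TPA dose alone, or the solvent acetone (vehicle, 200 ul). TPA is an irritant and tumour promoter, and tissue was taken 24 h after it. The 8 libraries were 1 KO FA+TPA, 1 WT FA+TPA, 1 KO TPA, 1 WT TPA, 2 KO vehicle and 2 WT vehicle.

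Sprr proteins are short, glutamine- and proline-rich precursors of the cornified envelope, the protein shell that replaces the plasma membrane of dying keratinocytes. Transglutaminases crosslink their ends to loricrin, involucrin and to each other, so that they act as bridges, whose amount is thought to tune how rigid the envelope is. In mouse back skin they are weakly expressed at rest and are known to be induced by wounding, ultraviolet light, irritants and barrier defects, in part through AP-1 and Ets-type factors, while loricrin and filaggrin dominate the resting envelope.

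All 17 Sprr genes of the files lie on mouse chromosome 3, between positions 92215799 and 92500493 of GRCm38 (the mm10 assembly), within 284.7 kb of the epidermal differentiation complex. The 6 Sprr2 members lie on the plus strand and Sprr1b, Sprr3, Sprr1a and Sprr4 on the minus strand. Upstream sequence from RefSeq, on GRCm38.p6, was found for 9 of the 10 members, Sprr2g having no entry. The 250 bases before the annotated start are given, 5′ to 3′ on the gene's strand, for the pair of Sprr1 genes and for Sprr2f and Sprr2h, because both genes of each pair rose under TPA while only the first of each pair was called lower with FA. Capitals mark matches to the AP-1 motif TGANTCA and to the octamer motif ATTTGCAT, searched on both strands.
Sprr1a (chr3:92485882-92486131, minus strand): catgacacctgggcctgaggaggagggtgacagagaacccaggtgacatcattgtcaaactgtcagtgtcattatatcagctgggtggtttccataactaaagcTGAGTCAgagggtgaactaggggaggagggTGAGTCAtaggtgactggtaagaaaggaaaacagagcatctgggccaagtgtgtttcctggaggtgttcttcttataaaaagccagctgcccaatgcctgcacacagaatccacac
Sprr1b (chr3:92438780-92439029, minus strand): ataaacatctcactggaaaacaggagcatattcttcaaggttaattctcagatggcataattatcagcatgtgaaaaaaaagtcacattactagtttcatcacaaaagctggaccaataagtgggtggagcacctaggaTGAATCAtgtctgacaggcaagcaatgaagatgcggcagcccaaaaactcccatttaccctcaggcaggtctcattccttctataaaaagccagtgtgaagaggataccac
Sprr2f (chr3:92364937-92365186, plus strand): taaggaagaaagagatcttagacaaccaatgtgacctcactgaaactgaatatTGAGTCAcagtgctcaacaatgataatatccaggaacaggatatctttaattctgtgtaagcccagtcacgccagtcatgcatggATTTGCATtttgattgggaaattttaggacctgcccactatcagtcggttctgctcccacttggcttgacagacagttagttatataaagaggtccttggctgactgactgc
Sprr2h (chr3:92385435-92385684, plus strand): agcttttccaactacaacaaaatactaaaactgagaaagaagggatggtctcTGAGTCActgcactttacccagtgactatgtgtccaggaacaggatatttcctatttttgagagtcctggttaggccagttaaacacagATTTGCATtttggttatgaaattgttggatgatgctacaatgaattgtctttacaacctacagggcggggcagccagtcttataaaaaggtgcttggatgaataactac

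The AP-1 motif, bound by Fos and Jun proteins, occurred in 7 of the 9 members' windows of 300 bases (250 before to 50 after the start), against 7.8% of 32851 RefSeq promoter windows of that length. It began 146 and 116 bases before the start in Sprr1a and 111 bases before it in Sprr1b. In the 5 Sprr2 members with a window it sat between 193 and 198 bases before the start, and Sprr3 and Sprr4 had none. The octamer was found in those same 5 Sprr2 windows, 108 to 112 bases before the start, against 1.7% of all windows. A TATAAA box was present in 8 of 9 members, against 13.6% of all windows. Of the other motifs searched on both strands, the antioxidant response element TGACNNNGC was present in 2 of 9 members against 12.4% of all windows, overlapping an AP-1 match in Sprr1a. AGGAAG, an Ets-type core, was present in 3 of 9 against 35.4%, and a palindromic glucocorticoid response element in 0 of 9 against 0.5%. These are matches of letters, which do not show binding. Sprr4 is annotated as 231 bases of coding sequence in 1 exon, so its window may not lie at the start of transcription.

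Sprr2 genes arose by duplication, and the share of each transcript that is repeated in another gene bears on their counts. Over all stretches of 50 bases, 14.1% of Sprr2b was also present in other genes (Sprr2a1, Sprr2a2 and Sprr2a3), 10.2% of Sprr2e (Sprr2i, Sprr2d and Sprr2f), 4.3% of Sprr2d and 0.7% of Sprr2f. No such stretch was shared by Sprr1a, Sprr1b, Sprr2g, Sprr2h, Sprr3 or Sprr4, so none of their exact stretches of that length matched another annotated transcript. Matches with mismatches and sequence outside annotated transcripts were not searched. Over 100 bases the largest share among members was 1.1%, in Sprr2e. The non-members Sprr2a1, Sprr2a2 and Sprr2a3 shared 96.3%, 96.5% and 61.1% over 50 bases, so that their counts are uncertain. The sources do not say how reads that map to several copies were treated. No member shared exon bases with an overlapping or antisense gene.

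Library totals ranged from 16874233 to 22560098 counts, and the 3 counts that a count of 0 still allows stood for 0.134 to 0.191 normalised CPM (counts scaled to library size). This limit covers counting error only. Ddit4 was lower in all KO than in all WT libraries, at 4.44 to 18.8 CPM in KO (n = 4) and 64.2 to 127.9 CPM in WT (n = 4), as the genotype labels have it. Markers of keratinocytes summed to between 17991 and 32628 CPM in every library. Nothing in the labels says that the vehicle replicates came from separate animals, and the treated groups hold 1 library per genotype. The p-values below therefore measure only the spread between these libraries, which may be technical, and treatment effects were fitted over both genotypes. In RNA from whole epidermis, fewer cells of a type and less RNA per cell cannot be told apart.

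Sprr1a made up most of the family's counts in vehicle skin, at 87.4% and 82.7% in the KO libraries and 92.8% and 92.2% in the WT libraries. It stood at 33 and 49.1 CPM in KO vehicle skin and at 49.7 and 62.7 CPM in WT vehicle skin, and encodes an envelope bridge that is also known as a marker of regenerating nerve. The other members were at most 3.13 CPM in any vehicle library. Per kilobase of exon, mean vehicle levels were 60.3 CPM for Sprr1a, 3.52 for Sprr4, 2.18 for Sprr1b, 1.92 for Sprr2h and 1.81 for Sprr2d, and all others were at or below 0.444. Only Sprr1a over Sprr4 and Sprr2d over Sprr2g were neighbours in this order whose libraries did not overlap. Sprr4 may be overstated per kilobase because only its coding part is annotated.

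Sprr3, which is abundant in oesophagus and oral epithelium, was at or below 1 count in every library. It had 1 count in the WT FA+TPA library, 1 count in the WT vehicle replicate 2 library and 0 counts in the other 6, which still allows up to 0.134 CPM in the KO TPA and 0.185 CPM in the WT TPA library. It did not pass the filter on low counts and entered no test. The other 9 members passed, 4 of them (Sprr2b, Sprr2e, Sprr2f and Sprr2g) through the treated libraries, since only 5 passed the same filter on the vehicle libraries alone. These 4 could hardly have passed without being high under treatment. The counts, ranges and medians of members below therefore describe them and are not support for an effect.

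The first comparison asked how the family responded to TPA. All 9 members tested rose, with fitted log2 changes between 4.23 and 8.24, the median of 5.94 standing against -0.03 over all genes tested. Both ends of this range belong to members that passed the filter through the treated libraries, Sprr2b and Sprr2f. The members that passed on the vehicle libraries alone ran from 4.24 (Sprr1a) to 6.59 (Sprr1b). A rise was called by edgeR's quasi-likelihood test for 23.2% of the 19251 genes tested and a fall for 22.8%. For each of the 9 members, both TPA libraries were above all 4 vehicle libraries, and the largest edgeR adjusted p was 0.000982, for Sprr2b. The share of all genes separated in this way was not counted, so the separation only describes these members. Summed over the family, the TPA libraries held 1276 CPM (KO) and 1513 CPM (WT), against 37.8 and 59.4 CPM (KO) and 53.5 and 67.9 CPM (WT) in vehicle libraries.

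**Figure D1:**
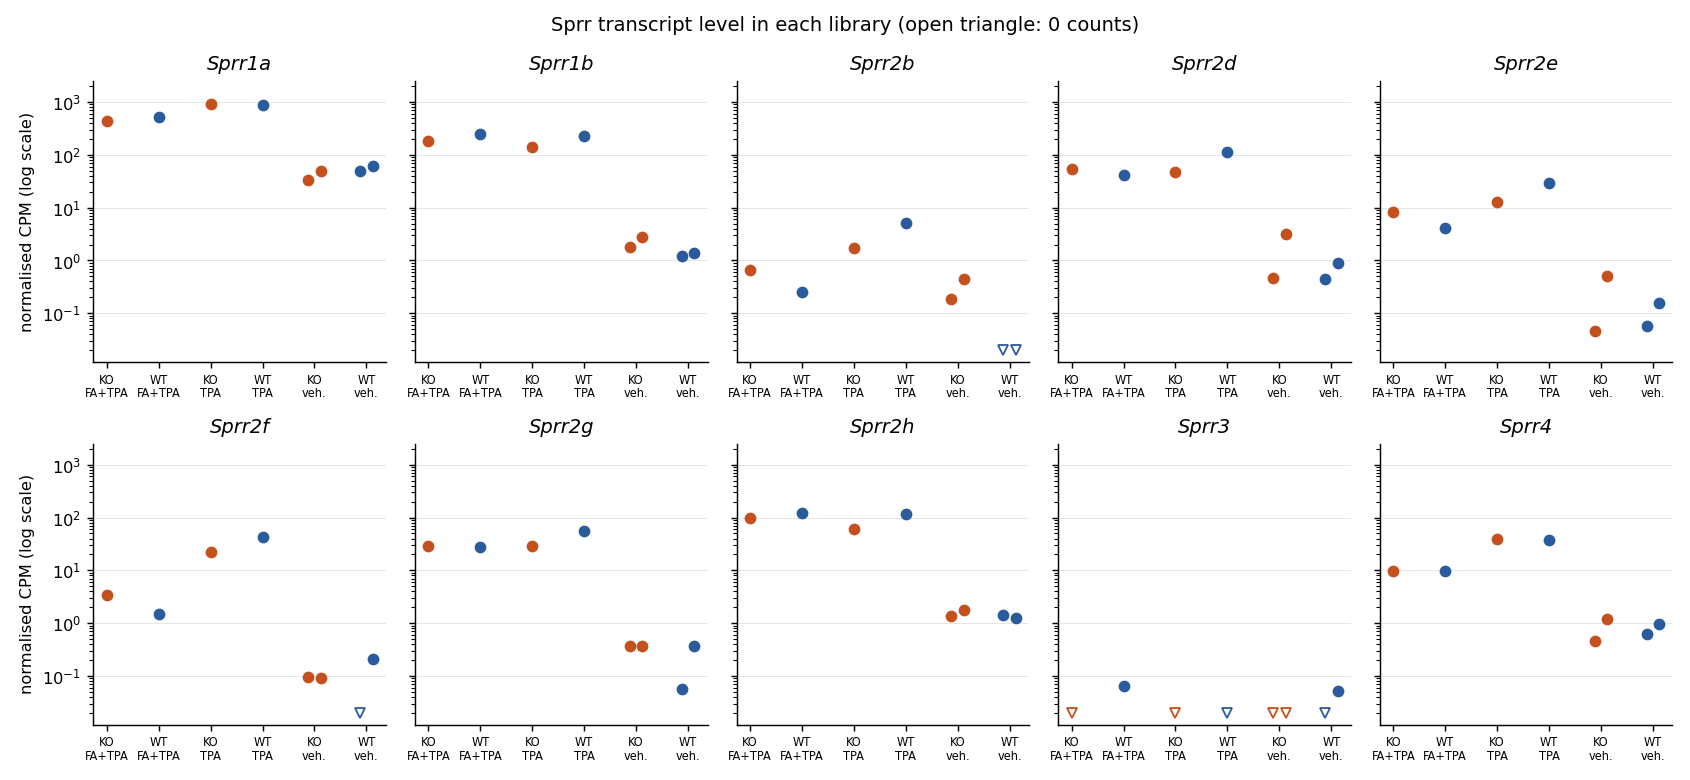
Normalised CPM (log axis) of each of the 10 members in each of the 8 libraries, KO in orange and WT in blue, 1 point per library, with open triangles at the foot for libraries with 0 counts. For 9 members both TPA libraries lie above all vehicle libraries, Sprr3 is at 0 or 1 count throughout, and the FA+TPA libraries lie below both TPA libraries for Sprr1a, Sprr2b, Sprr2e, Sprr2f and Sprr4. The shares of all genes separated in these ways were not counted.

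Among the Sprr1 genes, Sprr1a reached 921.0 CPM in KO TPA and 886.7 CPM in WT TPA skin, against 33 to 49.1 CPM in KO and 49.7 to 62.7 CPM in WT vehicle skin. The 2 TPA libraries were close to each other and the rise was 4.24 ± 0.16 (log2, SE). Sprr1b, whose human counterpart is a classical phorbol ester-induced gene of squamous airway epithelium, started far lower. It had 142.2 CPM in KO TPA and 224.6 CPM in WT TPA skin, against 1.78 and 2.81 CPM in KO and 1.24 and 1.39 CPM in WT vehicle skin, a rise of 6.59 ± 0.24 (log2, SE). The larger rise of Sprr1b moved the ratio between the genes: per base of exon, Sprr1b was 0.15 (KO) and 0.246 (WT) of Sprr1a under TPA, against 0.0523 and 0.0555 in KO and 0.0243 and 0.0216 in WT vehicle skin.

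The Sprr2 members, which encode very short envelope bridges, were low in vehicle skin and well above the limit of detection under TPA. In vehicle skin Sprr2b, Sprr2e, Sprr2f and Sprr2g were near that limit, while Sprr2d and Sprr2h were above it in every library. Sprr2h had 59.8 CPM in KO TPA and 117.4 CPM in WT TPA skin, against 1.36 and 1.77 CPM in KO and 1.41 and 1.24 CPM in WT vehicle skin, a rise of 5.86 ± 0.20 (log2, SE). Sprr2f had 22.6 CPM in KO TPA and 43.1 CPM in WT TPA skin, against 0.0936 and 0.0907 CPM in KO and 0 and 0.207 CPM in WT vehicle skin. Its rise of 8.24 ± 0.46 (log2, SE) was the largest of the members and rests on vehicle counts of 2 and 2 in KO and 0 and 4 in WT.

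Sprr2d had 47.8 CPM in KO TPA and 114.5 CPM in WT TPA skin, against 0.468 and 3.13 CPM in KO and 0.452 and 0.878 CPM in WT vehicle skin. Its rise was 5.94 ± 0.50, and the KO vehicle replicate 2 library stood above the other 3 vehicle libraries. Sprr2e had 12.7 CPM in KO TPA and 28.8 CPM in WT TPA skin, against 0.0468 and 0.499 CPM in KO and 0.0564 and 0.155 CPM in WT vehicle skin, a rise of 6.63 ± 0.54. The same KO vehicle replicate 2 library was the highest vehicle library for Sprr2e as well.

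Sprr2g, annotated as a polymorphic pseudogene, rose as well. It had 28.9 CPM in KO TPA and 56.2 CPM in WT TPA skin, against 0.375 and 0.363 CPM in KO and 0.0564 and 0.362 CPM in WT vehicle skin, a rise of 7.07 ± 0.32 (log2, SE). Sprr2b was the lowest of the induced members. It had 1.75 CPM in KO TPA and 5.17 CPM in WT TPA skin, against 0.187 and 0.453 CPM in KO vehicle skin and 0 in both WT vehicle libraries, a rise of 4.23 ± 0.75 (log2, SE). This value was 5.97 in DESeq2, 6.68 without the KO TPA and 2.64 without the WT TPA library.

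Sprr4, described in human skin after ultraviolet exposure, had almost the same level in both genotypes. It had 39.2 CPM in KO TPA and 36.9 CPM in WT TPA skin, against 0.468 and 1.18 CPM in KO and 0.621 and 0.981 CPM in WT vehicle skin, a rise of 5.53 ± 0.21 (log2, SE). Per kilobase of exon, the mean TPA levels ran from Sprr1a (1121 CPM) through Sprr1b (220.9), Sprr4 (164.8), Sprr2d (119.2), Sprr2h (117.8), Sprr2g (65.3), Sprr2f (54) and Sprr2e (32) to Sprr2b (4.41). In 5 of the 8 neighbouring pairs of this order, from Sprr4 down to Sprr2e, the libraries overlapped.

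The second comparison asked what the glucocorticoid did to the response. The family did not move as a block with FA: 4 members (Sprr1a, Sprr2e, Sprr2f and Sprr4) were lower in FA+TPA than in TPA skin, 0 were higher and 5 were not called. For single genes over the whole table, edgeR called 4.31% lower and 5.71% higher in this comparison. The members' log2 changes spread from -3.67 to 0.35, with a median of -0.96 against 0.01 over all genes tested. The family sum was 816.8 CPM (KO) and 971.4 CPM (WT) in FA+TPA skin, against 1276 CPM (KO) and 1513 CPM (WT) in TPA skin.

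**Figure D2:**
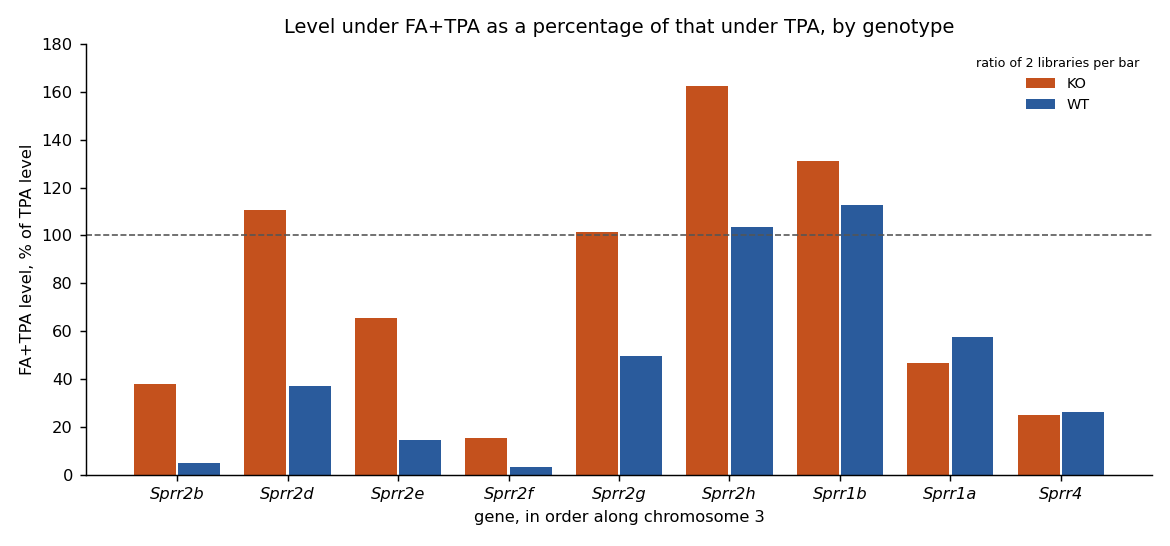
Level in the FA+TPA library as a percentage of that in the TPA library of the same genotype, for the 9 tested members in their order along chromosome 3 (KO orange, WT blue, each bar 1 library over 1 library, no error bar possible; dashed line at 100%). Sprr2f, Sprr4 and Sprr1a are below 100% in both genotypes, Sprr2h and Sprr1b are above it in both, and Sprr2d and Sprr2g are above it in KO and below it in WT.

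Sprr2f had the lowest fitted change with FA among the members called. It had 3.44 CPM in KO FA+TPA and 1.46 CPM in WT FA+TPA skin, against 22.6 CPM in KO TPA and 43.1 CPM in WT TPA skin, so 15.2% (KO) and 3.39% (WT) of the TPA level was left. The change was -3.67 ± 0.41 (log2, SE; edgeR adjusted p = 0.000412), between -4.88 (without the KO FA+TPA library) and -2.76 (without the WT FA+TPA library) over the alternatives. Sprr2h, which lies beyond Sprr2g on the same strand and has the same AP-1 and octamer matches, was not called. It had 97.2 CPM in KO FA+TPA and 121.5 CPM in WT FA+TPA skin, against 59.8 CPM in KO TPA and 117.4 CPM in WT TPA skin. The change was 0.35 ± 0.18 (95% interval -0.05 to 0.76; edgeR adjusted p = 0.286). Within a library, Sprr2h over Sprr2f per base of exon was 22.9 (KO) and 67.3 (WT) in FA+TPA skin, against 2.14 (KO) and 2.21 (WT) in TPA skin, a ratio that does not depend on scaling between libraries.

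The Sprr1 pair parted in the same way. Sprr1a had 428.7 CPM in KO FA+TPA and 511.2 CPM in WT FA+TPA skin, against 921.0 CPM in KO TPA and 886.7 CPM in WT TPA skin, a change of -0.96 ± 0.19 (log2, SE; edgeR adjusted p = 0.00901). Sprr1b had 186.5 CPM in KO FA+TPA and 253.1 CPM in WT FA+TPA skin, against 142.2 CPM in KO TPA and 224.6 CPM in WT TPA skin, a change of 0.27 ± 0.22 (95% interval -0.22 to 0.77; edgeR adjusted p = 0.528). For Sprr1a the FA+TPA libraries were below both TPA libraries, and for Sprr1b the libraries overlapped. Per base, Sprr1b over Sprr1a was 0.422 (KO) and 0.481 (WT) in FA+TPA skin, against 0.15 (KO) and 0.246 (WT) in TPA skin. The Sprr1a call was lost without the KO FA+TPA (-0.99, edgeR adjusted p = 0.0785), the KO TPA (-0.77, 0.0799) or the WT FA+TPA library (-0.97, 0.0922).

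Sprr4 fell by nearly the same share in both genotypes. It had 9.83 CPM in KO FA+TPA and 9.66 CPM in WT FA+TPA skin, 25.1% (KO) and 26.1% (WT) of its TPA level, a change of -1.96 ± 0.21 (log2, SE; edgeR adjusted p = 0.000337). Sprr2e had 8.32 CPM in KO FA+TPA and 4.13 CPM in WT FA+TPA skin, 65.6% (KO) and 14.4% (WT) of its TPA level, a change of -1.69 ± 0.47 (edgeR adjusted p = 0.0468). This call was fragile: it was lost in DESeq2 (-1.95, adjusted p = 0.38) and without the WT FA+TPA (-0.83, edgeR adjusted p = 0.536), the WT TPA (-0.58, 0.553) or the WT vehicle replicate 2 library (-1.69, 0.0582).

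Sprr2b, Sprr2d and Sprr2g were not called, and their levels in the 2 genotypes went different ways or by different amounts. Sprr2b had 0.663 CPM in KO FA+TPA and 0.254 CPM in WT FA+TPA skin, 38% (KO) and 4.91% (WT) of its TPA level, a change of -2.84 ± 0.84 (edgeR adjusted p = 0.0602). It passed the threshold in 6 of the alternatives, among them the fit without the KO TPA library (-5.15, 0.00383). In that fit and in DESeq2 (-3.83, adjusted p = 0.195) its change was below that of Sprr2f, and without the WT TPA library it was -1.08. Sprr2d had 52.8 CPM in KO FA+TPA and 42.2 CPM in WT FA+TPA skin, 110.5% (KO) and 36.9% (WT) of its TPA level. Sprr2g had 29.3 CPM in KO FA+TPA and 27.9 CPM in WT FA+TPA skin, 101.5% (KO) and 49.6% (WT) of its TPA level. Their changes were -0.74 ± 0.48 for Sprr2d (95% interval -1.79 to 0.32; edgeR adjusted p = 0.404) and -0.51 ± 0.25 for Sprr2g (-1.07 to 0.05; 0.259).

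**Figure D3:**
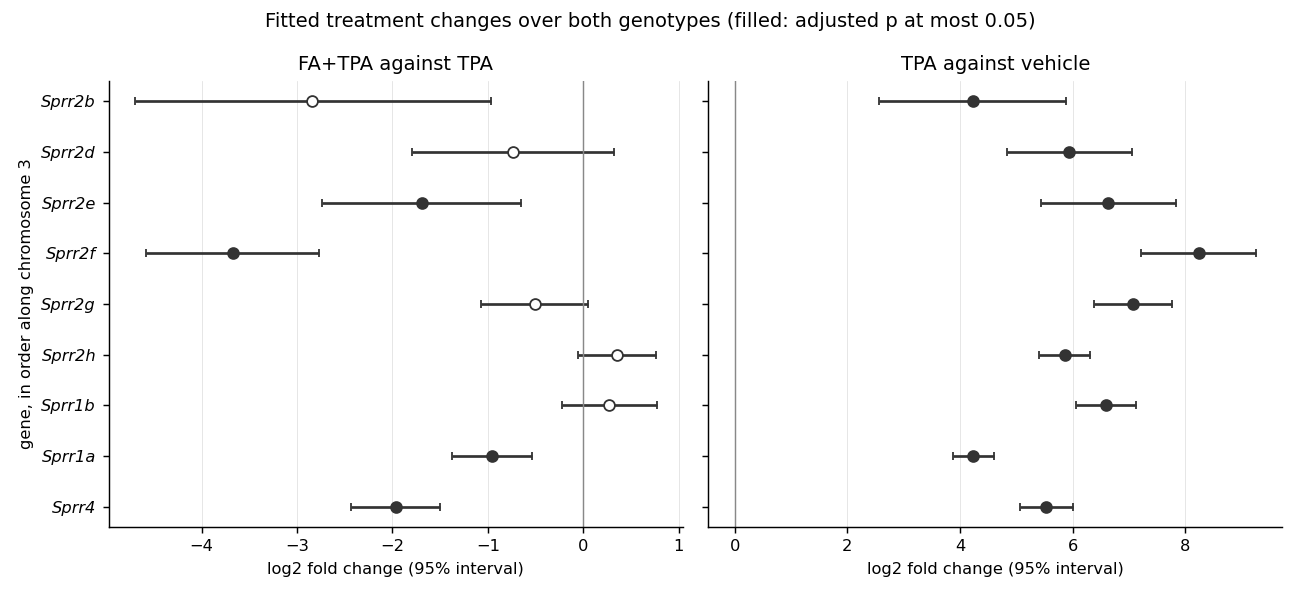
Fitted log2 fold changes with 95% intervals for the 9 tested members in their order along chromosome 3, FA+TPA against TPA on the left and TPA against vehicle on the right, from edgeR over all 8 libraries; filled points have an adjusted p at most 0.05. All members are filled on the right, between 4.23 and 8.24, and on the left Sprr2e, Sprr2f, Sprr1a and Sprr4 are filled, between -3.67 and -0.96.

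Of the non-members, 4 were tested, and 2 of them were called lower with FA. Sprr2a3, whose counts are uncertain for the sharing given above, had 73 counts in KO FA+TPA and 74 counts in WT FA+TPA skin, against 1036 counts in KO TPA and 1971 counts in WT TPA skin, a change of -4.10 ± 0.37 (log2, SE; edgeR adjusted p = 0.000123). Sprr2i changed by -2.55 ± 0.58 (edgeR adjusted p = 0.0186), while Sprr2j-ps (-2.09 ± 0.87, 0.2) and Sprr2k (-0.30 ± 0.48, 0.772) were not called. With all Sprr2 genes of the files summed to 1 feature, which removes any division of reads among them but would not restore reads left uncounted, the change was -0.82 ± 0.38 for FA+TPA against TPA (edgeR adjusted p = 0.224) and 6.31 ± 0.37 for TPA against vehicle (6.36e-07).

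The third comparison asked how much of the response was left under FA. In FA+TPA skin 8 of the 9 members tested were higher than in vehicle skin, where edgeR called 17.4% of all genes higher and 14.2% lower, with a median log2 change of 4.94 against -0.01 over all genes. Sprr1b (6.87 ± 0.24), Sprr2g (6.56 ± 0.32) and Sprr2h (6.21 ± 0.20) had the largest changes, followed by Sprr2d (5.21 ± 0.50), Sprr2e (4.94 ± 0.61), Sprr2f (4.56 ± 0.65), Sprr4 (3.56 ± 0.23) and Sprr1a (3.28 ± 0.16). The exception was Sprr2b, at 1.39 ± 1.07 (edgeR adjusted p = 0.356), whose FA+TPA libraries overlapped the vehicle libraries; with 1 mean per group it was called (3.17, 0.0359). This comparison shares its FA+TPA libraries with the second and its vehicle libraries with the first, so that the 3 sets of values are not independent. Per kilobase, the order in FA+TPA skin was Sprr1a (583.0 CPM), Sprr1b (264.8), Sprr2h (145.4), Sprr2d (69.8), Sprr2g (43.9), Sprr4 (42.2), Sprr2e (9.62), Sprr2f (4.02) and Sprr2b (0.585), with no overlap of the libraries in any of its 8 neighbouring pairs.

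**Figure D4:**
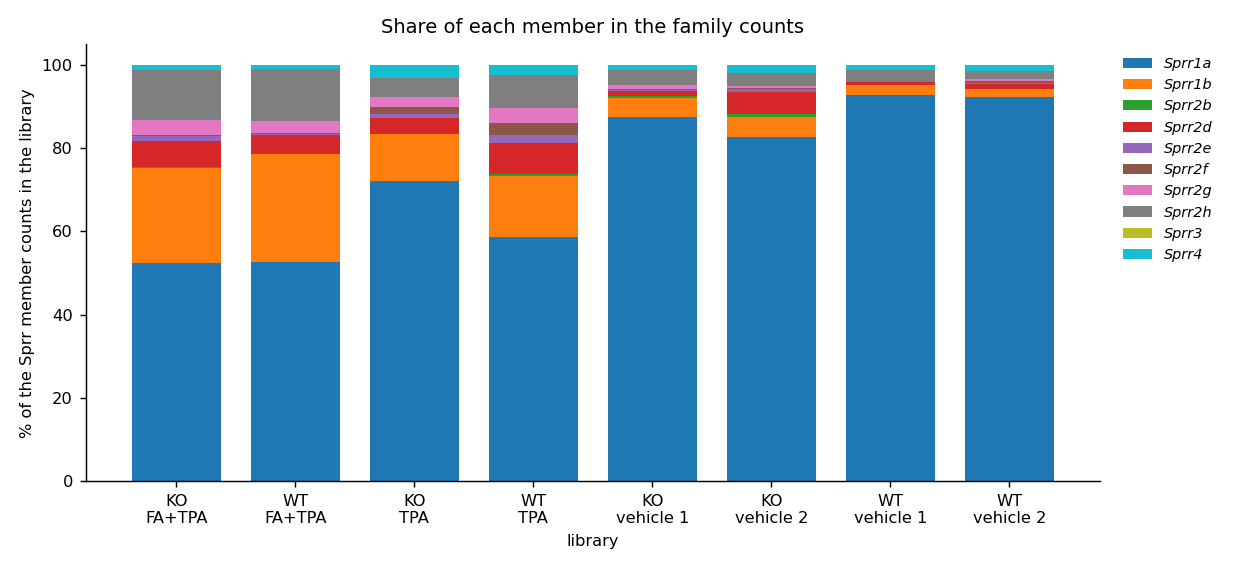
Share of each member in the counts of the 10 members (percent, stacked bars), 1 bar per library. Sprr1a takes 52.5% and 52.6% in FA+TPA, 72.2% and 58.6% in TPA and between 82.7% and 92.8% in vehicle libraries.

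The make-up of the family differed by treatment. Sprr1a supplied 52.5% (KO) and 52.6% (WT) of the family's counts in FA+TPA skin and 72.2% (KO) and 58.6% (WT) in TPA skin, against 82.7% to 92.8% in the 4 vehicle libraries. Sprr1b supplied 22.8% (KO) and 26.1% (WT) in FA+TPA skin and 11.1% (KO) and 14.8% (WT) in TPA skin, against 4.71% and 4.73% (KO) and 2.32% and 2.05% (WT) in vehicle skin. The Sprr2 members together supplied 23.5% (KO) and 20.3% (WT) in FA+TPA skin and 13.6% (KO) and 24.1% (WT) in TPA skin, against 6.69% and 10.6% (KO) and 3.69% and 4.18% (WT) in vehicle skin. The FA+TPA libraries of the 2 genotypes were thus alike in these shares, while those under TPA alone differed by the larger Sprr2 part in WT. Single Sprr2 members were less alike under FA+TPA, with Sprr2f at 0.421% (KO) and 0.15% (WT) and Sprr2d at 6.47% and 4.34%. Sprr2h was close, at 11.9% and 12.5%. Each of these contrasts rests on 1 library per genotype.

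The last comparisons asked whether loss of REDD1 altered the family. Over all treatments edgeR called 0 of the 9 members, where it called 3.58% of all genes, and DESeq2 called 0 as well. The single member with an unadjusted p under 0.05 was Sprr2h, at -0.48 ± 0.17 in KO relative to WT (edgeR adjusted p = 0.177), which passed the threshold without the low-count filter (-0.47, 0.00905). Over all genes, 3083 of 19251 had an unadjusted edgeR p under 0.05. In vehicle skin, edgeR and DESeq2 called 0 of 9 members, where edgeR called 2.17% of all genes. An unadjusted p under 0.05 was found for 2215 of the 19251 genes and for 3 members. These were Sprr1a (-0.45 ± 0.19, edgeR adjusted p = 0.398), Sprr1b (0.80 ± 0.27, 0.232) and Sprr2b, which had 4 and 10 counts in KO and 0 counts in both WT vehicle libraries. Markers of skeletal muscle and sebaceous gland were higher in KO than in WT vehicle skin, at 49.7 to 161.1 CPM against 4.96 to 19.1 CPM for muscle and 113.3 to 131.3 CPM against 30.5 to 52.4 CPM for sebaceous gland; their part in the vehicle values was not tested.

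Under TPA, 7 of the 9 members were lower in the KO than in the WT library, with KO/WT ratios of 0.338 (Sprr2b), 0.418 (Sprr2d), 0.441 (Sprr2e), 0.509 (Sprr2h), 0.514 (Sprr2g), 0.525 (Sprr2f) and 0.633 (Sprr1b), while Sprr1a (1.04) and Sprr4 (1.06) were level. Under FA+TPA, 3 of the 9 were lower in KO, with ratios of 0.737 (Sprr1b), 0.8 (Sprr2h) and 0.839 (Sprr1a), and 6 were higher, led by Sprr2b (2.61), Sprr2f (2.35) and Sprr2e (2.02). Each of these ratios sets 1 library against 1 library. The members were measured in the same libraries, so that 7 members are not 7 separate observations.

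**Figure D5:**
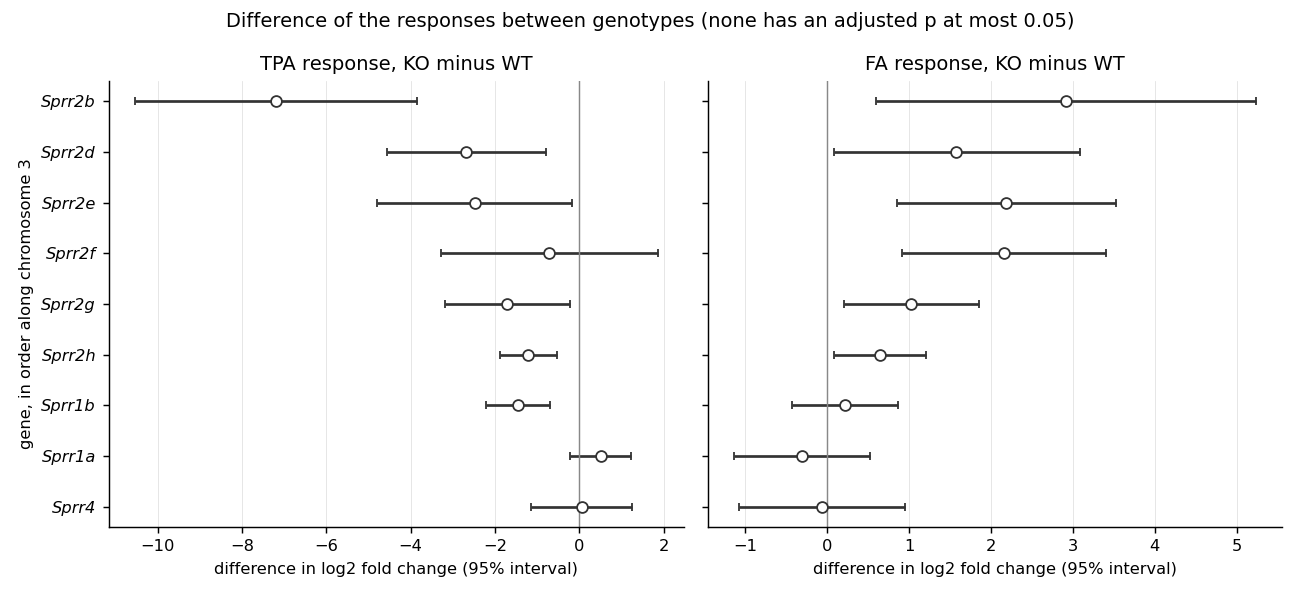
Difference of the log2 fold change between genotypes (KO minus WT, with 95% intervals from edgeR), for the TPA response (left) and the FA response (right) of the 9 tested members in their order along chromosome 3. Open points mark that none had an adjusted p at most 0.05; the Sprr2b value on the left rests on WT vehicle libraries at 0 counts, so that its size is not a bound.

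The difference between the genotypes' responses was tested as an interaction, with the spread taken from the vehicle pairs alone (2 residual degrees of freedom). For the TPA response edgeR called 0 of the 9 members, where it called 0.00519% of all genes (1 gene). An unadjusted p under 0.05 was found for 1014 of the 19251 genes and for 6 members. The differences, KO minus WT on the log2 scale, were -1.46 ± 0.34 for Sprr1b, -2.68 ± 0.84 for Sprr2d, -2.48 ± 1.04 for Sprr2e, -1.72 ± 0.67 for Sprr2g and -1.22 ± 0.31 for Sprr2h, with edgeR adjusted p-values of 0.427 to 0.909. Sprr2b had the lowest edgeR adjusted p, 0.365. For Sprr1a (0.51 ± 0.33), Sprr2f (-0.72 ± 1.15) and Sprr4 (0.05 ± 0.54) the 95% intervals included 0. For the FA response edgeR called 0 of the 9 members, where it called 0% of all genes, with an adjusted p of 1 for each member. In that comparison 613 of the 19251 genes and 6 Sprr2 members had an unadjusted p under 0.05. Each of these 6 had a less negative or more positive change in KO, from 0.65 ± 0.25 for Sprr2h to 2.92 ± 1.03 for Sprr2b. Measured in the same libraries, they are not 6 separate observations. Both interactions hold the KO TPA and WT TPA libraries, with opposite sign. A deviation of either library moves the 2 differences in opposite directions, so the TPA and FA interactions are not independent. DESeq2 called 0 members in both interactions, giving an adjusted p to 8 members for the TPA response and to 9 for the FA response. Leaving out 1 library gave between 0 and 5 called members for the TPA response and between 3 and 4 for the FA response. Each of these fits that called any member had 1 vehicle library left out, so that its spread rests on the 1 vehicle pair that remains, while 0 were called for the TPA response without KO vehicle replicate 2 or either FA+TPA library. In simulated counts the interaction test recovered 11% of 2-fold and 64% of 4-fold differences for the TPA response, and 1% and 46% for the FA response, so that differences of the size seen here could be missed.

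The proteins that Sprr bridges connect were followed as a list of 20 cornified envelope precursors and crosslinkers, all tested. Under TPA 9 rose and 5 fell (median log2 change 0.39). Over all genes edgeR called 23.2% higher and 22.8% lower (median -0.03), so the falls were near that share. The largest rises in the list were those of Rptn (6.28 ± 0.66) and Tgm3 (2.76 ± 0.25), fitted over both genotypes. The TPA response in KO minus that in WT was -4.03 ± 0.68 for Rptn and -1.11 ± 0.37 for Tgm3, neither called. In vehicle skin Rptn was higher in KO than in WT by 2.70 ± 0.48 (edgeR adjusted p = 0.0205). Because Sprr2b, Sprr2e, Sprr2f and Sprr2g passed the filter through the treated libraries, the Sprr count is not set against that of this list. Tgm1, the membrane transglutaminase that starts envelope assembly, rose by 1.16 ± 0.08 and Cnfn (cornifelin) by 1.71 ± 0.14, while Lor (loricrin), the main protein of the resting envelope, changed by -1.19 ± 0.13 and Flg2 (filaggrin-2) by -1.16 ± 0.13 (largest edgeR adjusted p 5.57e-05). In FA+TPA against TPA skin 7 rose and 1 fell (median 0.24), against 5.71% and 4.31% of all genes (median 0.01). Lor (1.51 ± 0.15) and Flg2 (1.24 ± 0.15) rose with edgeR adjusted p-values of 0.000233 and 0.000647, whereas Sprr1a, Sprr2e, Sprr2f and Sprr4 fell. The fall of Tchh (trichohyalin, -0.65 ± 0.18, edgeR adjusted p = 0.0465) was lost in 8 of 15 alternatives. Against vehicle skin, 12 of the 20 were higher in FA+TPA skin and 0 were lower, against 17.4% and 14.2% of all genes. Tgm1 was higher by 1.22 ± 0.08 and Cnfn by 1.80 ± 0.14.

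The late cornified envelope (Lce) genes, which lie in the same complex, were all 21 tested. Under TPA 15 rose and 3 fell (median 1.31), against 23.2% and 22.8% of all genes. Lce3d (7.56 ± 0.34) and Lce3c (4.09 ± 0.24), of the Lce3 group known for induction in injured skin, rose, and Lce1m (-2.36 ± 0.11) and Lce1a2 (-0.37 ± 0.08) fell, the last without a call when the WT TPA library was left out (edgeR adjusted p = 0.0605). In FA+TPA against TPA skin 13 rose and 1 fell (median 0.63), against 5.71% and 4.31% of all genes. Lce1m rose by 2.17 ± 0.11 and Lce1a2 by 0.94 ± 0.09. The 1 that fell was Lce3a (-2.36 ± 0.61, edgeR adjusted p = 0.0332), a call lost in DESeq2 (0.286) and without the WT FA+TPA (0.397) or the WT TPA (0.366) library. Against vehicle, 20 of the 21 were higher in FA+TPA skin and 0 lower, against 17.4% and 14.2% of all genes. Among them Lce1h (2.40 ± 0.11) and Lce1e (1.81 ± 0.09) had the smallest p.

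Of 18 transcription factors known from work on Sprr promoters or cornification, all tested, 11 rose and 1 fell under TPA (median 0.54). Over all genes edgeR called 23.2% higher and 22.8% lower. Elf3, an epithelial Ets-type factor known to act on the SPRR2A promoter in human keratinocytes, had the largest change of those named, 4.55 ± 0.22, followed by Elf5 at 2.94 ± 0.20. Fosl1 (Fra-1, an AP-1 subunit) rose by 1.26 ± 0.18 and Nfe2l2 (NRF2) by 0.67 ± 0.15, the last without a call when the KO TPA library was left out (edgeR adjusted p = 0.0569). Ets2 changed by -0.51 ± 0.10, and Klf4, a factor of barrier formation, had -0.15 ± 0.09 (edgeR adjusted p = 0.18). In FA+TPA against TPA skin 2 rose and 3 fell (median 0.02), against 5.71% and 4.31% of all genes. Elf3 (-2.81 ± 0.25, edgeR adjusted p = 0.000122) and Stat3 (-0.88 ± 0.10, 0.000551) fell. The rises of Fosl1 (0.82 ± 0.20, edgeR adjusted p = 0.0232) and Klf4 (0.43 ± 0.10, 0.02) were each lost when the KO TPA library was left out (0.283 and 0.225) and in 2 further alternatives for Fosl1 and 4 for Klf4. Against vehicle, 10 were higher in FA+TPA skin and 0 lower, against 17.4% and 14.2% of all genes. Among the 10 were Fosl1 (2.08 ± 0.17) and Ovol1 (1.14 ± 0.09), a repressor active in differentiating epidermis. All these lists were chosen with earlier results of these data known and are descriptions.

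The genes outside the family whose pattern was most like its mean profile were Surf4 (Pearson r = 0.999 over 8 libraries), Tuba1c (0.998), Nme1 (0.997), Endou (0.996) and Sec61a1 (0.996). The 8 libraries fall into treatment groups, which any gene induced by TPA and less so by FA+TPA shares, so that these values are descriptions and carry no p. Endou, for example, had 231.3 CPM in KO FA+TPA and 228.0 CPM in WT FA+TPA skin and 351.6 CPM in KO TPA and 395.4 CPM in WT TPA skin, against 31.3 to 49.1 CPM in vehicle skin. Among the members, r with the same profile, which contains them, ran from 0.859 (Sprr2b) to 0.994 (Sprr2e).

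Markers of other cell types moved with the treatments as well. The summed level of 7 neutrophil markers was 16.5 to 20.1 CPM in FA+TPA and 47.6 to 75.2 CPM in TPA libraries, against 1.4 to 3.2 CPM in vehicle libraries, with the defining markers Elane and Ly6g at no more than 3 counts over all libraries. The sum of 5 Langerhans cell markers was 307.7 to 424.3 CPM in FA+TPA and 436.7 to 477.8 CPM in TPA libraries, against 763.7 to 882.0 CPM in vehicle libraries, and 5 of 5 were called lower than in vehicle skin under both treatments. That of 6 fibroblast markers was 262.7 to 348.6 CPM in FA+TPA and 385.7 to 512.4 CPM in TPA libraries, against 620.1 to 1166 CPM in vehicle libraries. The single fibroblast markers were mixed, with 3 called lower and 2 higher than in vehicle skin under each treatment. The neutrophil, Langerhans cell and fibroblast sums did not overlap between the treatments.

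The sum of 7 keratinocyte markers was 29141 to 32628 CPM in FA+TPA and 17991 to 22276 CPM in TPA libraries, against 19666 to 23622 CPM in vehicle libraries, so that the FA+TPA libraries stood above all others. The single keratinocyte markers were mixed. Against vehicle, 1 was called higher and 3 lower under TPA, and 4 higher and 2 lower under FA+TPA. Skeletal muscle markers summed to 93.7 to 105.0 CPM in FA+TPA and 16.1 to 29.6 CPM in TPA libraries, against 4.96 to 161.1 CPM in vehicle libraries. Endothelial markers summed to 5.78 to 8.75 CPM in FA+TPA and 6.96 to 12.1 CPM in TPA libraries, against 2.65 to 4.24 CPM in vehicle libraries, below both treatments. Macrophage markers summed to 135.7 to 165.1 CPM in FA+TPA and 122.9 to 305.5 CPM in TPA libraries, against 111.2 to 127.0 CPM in vehicle libraries. Of the 8 single macrophage markers, 5 were called higher and 1 lower than in vehicle skin under TPA (median log2 change 1.59). Under FA+TPA 5 were called higher and 0 lower (median 2.04). The sums of T cell markers (51.5 to 54, 54.2 to 64.6 and 45.7 to 76.1 CPM in FA+TPA, TPA and vehicle libraries) and sebaceous gland markers (24 to 77.7, 53.3 to 71 and 30.5 to 131.3 CPM in the same order) overlapped vehicle under both treatments. The T cell sum hides its single markers: against vehicle, 4 of 5 were called lower and 1 higher under each treatment. Their median log2 change was -1.66 under TPA and -2.15 under FA+TPA. Melanocyte markers summed to 4.95 to 5.27 CPM in FA+TPA and 4.25 to 4.98 CPM in TPA libraries, against 6.21 to 9.27 CPM in vehicle libraries. The part of these shifts in the Sprr values was not tested.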

How the data were processed

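The data are RNA sequencing libraries of scraped mouse epidermis, 8 in all. The submitters' processing notes name Trim Galore, STAR, HTSeq and mm10; they give no handling of multi-mapping reads, no strand setting, no annotation release and no tool versions. The deposited values are raw read counts per Ensembl gene, which the authors had not normalised, and 54079 of 54232 identifiers matched GENCODE M21.

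Quasi-likelihood F tests of edgeR 4.0.16 (R 4.3.3) were run on the counts, with TMM normalisation and filterByExpr by treatment at a minimum count of 10. Over the 19251 genes left, p was adjusted by Benjamini-Hochberg with a threshold of 0.05. Treatment comparisons and KO against WT over all treatments used genotype and treatment additively (4 residual degrees of freedom). KO against WT in vehicle skin and both interactions used 1 mean per group (2 residual degrees of freedom), which assumes that single treated libraries vary like the vehicle pairs. A standard error is the absolute log2 change over the root of F, and intervals are 95%. CPM used TMM-scaled library sizes. The fits were checked on simulated counts, where 67% of 2-fold changes were recovered for TPA against vehicle and 61% for FA+TPA against TPA.

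The vehicle replicates of a genotype were not 1 library deposited under 2 numbers: the chi-square of their counts was 12.37 (KO) and 27.57 (WT) per degree of freedom. Members and lists were chosen with earlier results of these data known. All 10 members and Ddit4 were named, then from each list and treatment comparison the 2 genes with the smallest p in each direction past the threshold, the regulators Fosl1, Elf3, Klf4 and Nfe2l2 under TPA, and the 5 genes most like the family. Rptn and Tgm3 were named as the envelope precursors with the largest rises under TPA. Alternatives were RLE factors, library size only, no low-count filter, DESeq2 1.42.0, removal of the transcript Gm26917, all Sprr2 genes summed, 1 mean per group, each library left out in turn, and the vehicle libraries alone with or without a block for the replicate number.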

Additional observations from a re-analysis of the deposited data

How the results depend on the processing

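The rise of all 9 tested members under TPA and of 8 members in FA+TPA against vehicle skin held under each alternative, left-out libraries included. Sprr2b, Sprr2e, Sprr2f and Sprr2g passed the low-count filter through the treated libraries, so these counts describe them and are not support for an effect. With all Sprr2 genes summed, which leaves 4 features, 4 were called for TPA, 2 for FA+TPA against TPA and 4 for FA+TPA against vehicle. For FA+TPA against TPA, 7 members were called lower without the low-count filter, and between 2 (without the WT FA+TPA library) and 5 with 1 library left out. Over the fits without the KO TPA and without the WT TPA library, the change ran from -0.06 to 0.62 for Sprr1b, from -0.07 to 0.80 for Sprr2h (then called, edgeR adjusted p = 0.0328), from -1.64 to 0.33 for Sprr2d and from -1.10 to 0.08 for Sprr2g. The causes were not tested.

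KO against WT over all treatments called 1 member without the low-count filter and 0 in every fit with a library left out, and most of its small values changed sign. They became 0.09 (Sprr2b) and 0.04 (Sprr2e) with library size only; 0.47 (Sprr2d), 0.05 (Sprr1b), 2.13 (Sprr2b) and 0.53 (Sprr2e) with DESeq2; and 0.16 (Sprr2d), 1.81 (Sprr2b), 0.03 (Sprr2f) and 0.38 (Sprr2e) with 1 mean per group. With 1 library left out they ran from -0.49 to 0.68 (Sprr2d), -0.71 to 0.18 (Sprr2g), -0.48 to 2.47 (Sprr2b), -0.90 to 0.99 (Sprr2f), -0.82 to 1.06 (Sprr2e) and -0.04 to 0.14 (Sprr4). In vehicle skin they ran from -0.52 to 2.21 (Sprr2d), -1.10 to 2.17 (Sprr2e), -1.12 to 3.90 (Sprr2f) and -0.78 to 0.54 (Sprr4), with 0 to 2 members called. For the TPA interaction Sprr4 was -0.01 with every gene kept and ran from -0.46 to 0.86, and Sprr2f from -4.85 to 0.19. This interaction called 0 to 5 members with a library left out (5 without WT vehicle replicate 2, 0 without KO vehicle replicate 2), and the FA interaction 3 to 4.

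Same-numbered vehicle libraries did not deviate together (correlation -0.06), so the numbers were not taken to pair them; with a replicate block on the vehicle libraries alone 0 of 5 tested members and 832 genes were called, against 454 without the block and 418 in the fit of all libraries. Over all genes, KO against WT called 1552 with no filter and 450 with a mean per group, against 690; in vehicle skin 272 with DESeq2. The TPA interaction called 3 with library size only, 21 with no filter and 11 with DESeq2, against 1, and the FA interaction 7 with DESeq2. Leaving out 1 library gave 6049 to 8810 genes for TPA against vehicle, 571 to 2367 for FA+TPA against TPA, 2652 to 6051 for FA+TPA against vehicle, 288 to 630 for KO against WT over all treatments, 440 to 1465 in vehicle skin, 6 to 365 for the TPA interaction and 51 to 183 for the FA interaction. Library size only put the median of all genes at -0.25 for TPA against vehicle (2846 higher and 6432 lower, against 4472 and 4380) and at -0.23 for FA+TPA against vehicle (1953 and 4982, against 3347 and 2729), and gave 640 higher and 233 lower for KO against WT, against 382 and 308. Sprr2b, Sprr2e, Sprr2f and Sprr2g had between 0 and 11 counts in each vehicle library, which limits the precision of their changes.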
